A study of Mus musculus with 6 samples.

Results

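The 40 genes described here encode proteins that carry a cell through G2 and mitosis. They were taken as a named list, matched by Ensembl gene number, and are 40 of the 51826 genes quantified. All 40 were among the 14652 genes that passed the filter on low counts.

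Messenger RNA was sequenced from 6 cultures of embryonic fibroblasts (MEFs) of the mouse strain C57BL/6 at passages 2 to 5. These are primary cells of connective tissue, put into culture from embryos and able to divide for a limited number of passages. The wild-type group (Lztr1 +/+, written WT) held cultures 10, 12 and 16, and the heterozygous group (Lztr1 +/-, written Het) held cultures 11, 15 and 18. The LZTR1 protein brings RAS-family GTPases to a CUL3 ubiquitin ligase. How the mutant Lztr1 allele was made was not given in the sources used here. Labels do not tie a culture to an embryo or litter, so a p-value reflects the variation among these 6 cultures only, some of which may be technical.

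Genes of this group are switched on together late in the cell cycle. The transcription factor FOXM1, with B-MYB bound to the MuvB core, activates them in dividing cells, and the related DREAM complex keeps them off in resting cells. The promoters commonly carry CCAAT boxes, which NF-Y binds, and a cell cycle genes homology region (CHR), which MuvB recognises near the transcription start. In a bulk culture, a higher level of these transcripts in each dividing cell cannot be told apart from a larger share of cells in G2 and mitosis.

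Promoter sequences were examined first, because CCAAT and CHR letters are frequent in this list, although not present in every member. RefSeq promoter windows of build GRCm38.p6, from 250 bases before to 50 bases after the start, were matched by symbol for 33 of the 40 genes and gave 35 windows. CCAAT was searched on both strands, and the CHR was searched as TTTGAA on both strands or as TTTAAA, which reads the same on both. At least 1 CCAAT was present in 77.1% of the members' windows, against 37.4% of all 32851 windows in the table and 37.5% of the 14049 windows of genes tested here. At least 2 were present in 51.4%, against 11.7% of all windows. A CHR beginning within 50 bases of the start was found in 71.4% of the members' windows, against 8.28% of all windows and 5.3% of those of tested genes. Both a CCAAT and such a CHR occurred in 65.7%, against 3.35% of all windows. The windows of Mad2l1, Melk, Nuf2 and Nusap1 held neither motif. These matches describe the letters and are not evidence of a bound factor.

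The 150 bases before the start are shown for 8 genes, 5′ to 3′ on the strand of the gene, with CCAAT (or ATTGG, its reverse complement) and CHR letters in capitals. The genes for topoisomerase II alpha, CDK1, PLK1 and CDC20 stand for the mitotic core, and the other 4 are the members with the smallest unadjusted p between genotypes.
Top2a, chr11:99024190-99024339, minus strand: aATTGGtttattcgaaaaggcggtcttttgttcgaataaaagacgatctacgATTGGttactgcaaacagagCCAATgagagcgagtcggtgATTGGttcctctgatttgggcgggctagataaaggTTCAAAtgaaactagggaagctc
Cdk1, chr10:69352913-69353062, minus strand: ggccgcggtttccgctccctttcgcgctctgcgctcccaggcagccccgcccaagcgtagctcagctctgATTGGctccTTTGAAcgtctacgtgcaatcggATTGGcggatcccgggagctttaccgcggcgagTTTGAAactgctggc
Plk1, chr7:122159285-122159434, plus strand: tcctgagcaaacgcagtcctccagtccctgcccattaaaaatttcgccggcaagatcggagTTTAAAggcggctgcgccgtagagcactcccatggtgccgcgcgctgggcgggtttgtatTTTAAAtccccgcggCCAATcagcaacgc
Cdc20, chr4:118437344-118437493, minus strand: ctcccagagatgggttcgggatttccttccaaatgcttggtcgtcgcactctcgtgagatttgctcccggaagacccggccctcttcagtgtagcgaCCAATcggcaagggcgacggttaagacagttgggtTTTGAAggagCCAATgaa
Hmmr, chr11:40733438-40733587, minus strand: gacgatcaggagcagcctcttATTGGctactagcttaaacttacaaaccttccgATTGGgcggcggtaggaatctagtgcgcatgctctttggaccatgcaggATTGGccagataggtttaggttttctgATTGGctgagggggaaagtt
Ect2, chr3:27153855-27154004, minus strand: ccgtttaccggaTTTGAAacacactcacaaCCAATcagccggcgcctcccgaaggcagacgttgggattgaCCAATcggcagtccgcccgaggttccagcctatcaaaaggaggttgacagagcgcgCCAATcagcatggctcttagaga
Anln, chr9:22389207-22389356, minus strand: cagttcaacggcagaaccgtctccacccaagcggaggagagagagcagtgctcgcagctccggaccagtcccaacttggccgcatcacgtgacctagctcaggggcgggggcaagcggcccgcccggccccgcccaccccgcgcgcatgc
Cdc25b, chr2:131186798-131186947, plus strand: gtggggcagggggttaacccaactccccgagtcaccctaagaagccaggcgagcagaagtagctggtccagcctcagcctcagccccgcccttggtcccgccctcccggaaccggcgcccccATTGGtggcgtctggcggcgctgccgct

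In Top2a the CCAAT boxes begin 149, 98, 78 and 58 bases before the start and TTCAAA, the reverse complement of TTTGAA, follows at 23. In Cdk1 the CCAAT boxes begin at 80 and 48 and TTTGAA at 71 and 15. Cdc20 has CCAAT at 53 and 8 with TTTGAA between them at 18. Hmmr shows 4 CCAAT boxes in this stretch and Ect2 shows 3. Ect2 had another window, not printed, with CCAAT at 96 and 55 before its start and at base 2 after it. Anln shows neither motif before the start. After the start, outside the stretch printed, Anln has 2 CHR matches, beginning at bases 22 and 29, and Hmmr, Ect2 and Plk1 have 1 each, beginning at bases 9, 16 and 31. Before the start, Cdc25b shows a single CCAAT, at 28. The first bases after the start lay in a GENCODE transcript of the same gene for 20 of the 35 windows. The windows of Plk1, Hmmr, Anln and Cdc25b were not among these, so their distances are less certain.

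Depth and identity of the libraries bear on all that follows. Library totals ran from 11025286 to 21885101 expected counts, RSEM's estimates of reads per gene, and a count of 3 equalled 0.137 to 0.272 CPM (counts scaled by library total and by a TMM composition factor). Lztr1 measured 90.4 ± 6.21 CPM in WT and 44.9 ± 1.01 CPM in Het cultures (SD, n = 3 each), so the gene matched the genotype label in all 6. All 12 fibroblast markers examined were present, at mean TPM (transcript abundance scaled for gene length and library) of 41.8 to 3586. Their summed level was 10863 to 12653 TPM in WT and 10487 to 11537 TPM in Het cultures. Markers of other cells were also detected, some at means above the lowest fibroblast marker, such as Lyz2 (macrophage, mean 141 TPM), Acta1 (muscle, 112 TPM) and Tubb3 (neural, 105 TPM). The 8 macrophage and blood markers summed to 169 to 246 TPM in WT and 143 to 280 TPM in Het cultures, and the 7 skeletal muscle markers to 213 to 352 TPM in WT and 204 to 293 TPM in Het cultures. The 6 epithelial markers summed to 105 to 169 TPM in WT and 92.5 to 235 TPM in Het cultures, and the 6 neural and Schwann markers to 78.2 to 133 and 124 to 175 TPM. The 6 erythroid markers summed to 72.9 to 271 TPM in WT and 154 to 293 TPM in Het cultures. None of the marker genes was at 0 in every culture. The genome-wide test called 1 gene with all 6 cultures and 896 without WT 16, so the members called without WT 16 are also given without it.

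All 40 genes were transcribed at moderate to high levels in every culture. Per length, the highest mean over the 6 cultures was that of Cdk1, the kinase that drives entry into mitosis, at 292 TPM. Next came Ube2c, the ubiquitin-conjugating enzyme of the anaphase-promoting complex, at 218 TPM, and Top2a, the topoisomerase that untangles sister chromatids, at 181 TPM. The lowest were Cenpf, a large kinetochore and nuclear matrix protein gene, at 13.4 TPM, Cdc25c, a phosphatase gene that activates CDK1, at 14.6 TPM, and Ttk, the checkpoint kinase MPS1, at 17.4 TPM. The median member stood at 49.5 TPM, and 7 members reached 100 TPM.

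None of the 40 genes passed the genome-wide test between genotypes. Differences are given as log2 of Het over WT from the quasi-likelihood test of edgeR, with p adjusted by Benjamini-Hochberg over all 14652 genes and a threshold of 0.05. By that rule 0.00683% of all genes tested were called, which is Lztr1 alone. The members' differences ran from -0.27 to 0.32, that is from 83.1% to 125% of the WT level, and 29 of 40 lay within 0.1 of 0. Their median was 0.04, beside -0.0018 over all genes tested. At an unadjusted p under 0.05 there were 4 members, 3 higher and 1 lower in Het cultures, beside 12.2% of all genes (5.56% higher and 6.65% lower). By CPM, the groups did not overlap in 6 members, or 15% of them, beside 17.7% of all genes. They were 5 higher in Het, beside 7.75%, and 1 lower, beside 9.97%. By TPM, Hmmr, Anln and Ect2 stayed apart, but Kif4, Kif20a and Cdc25b overlapped. Aurkb, which overlapped by CPM, did not overlap by TPM. In total, the members' counts by unadjusted p and by CPM overlap were thus near the background. By direction, more members were higher than lower in Het, while over all genes more were lower. The SE of a member's difference ran from 0.053 to 0.13, and the widest bounds of the unadjusted 95% intervals were -0.47 for Cdc25b and 0.50 for Anln.

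**Figure D1:**
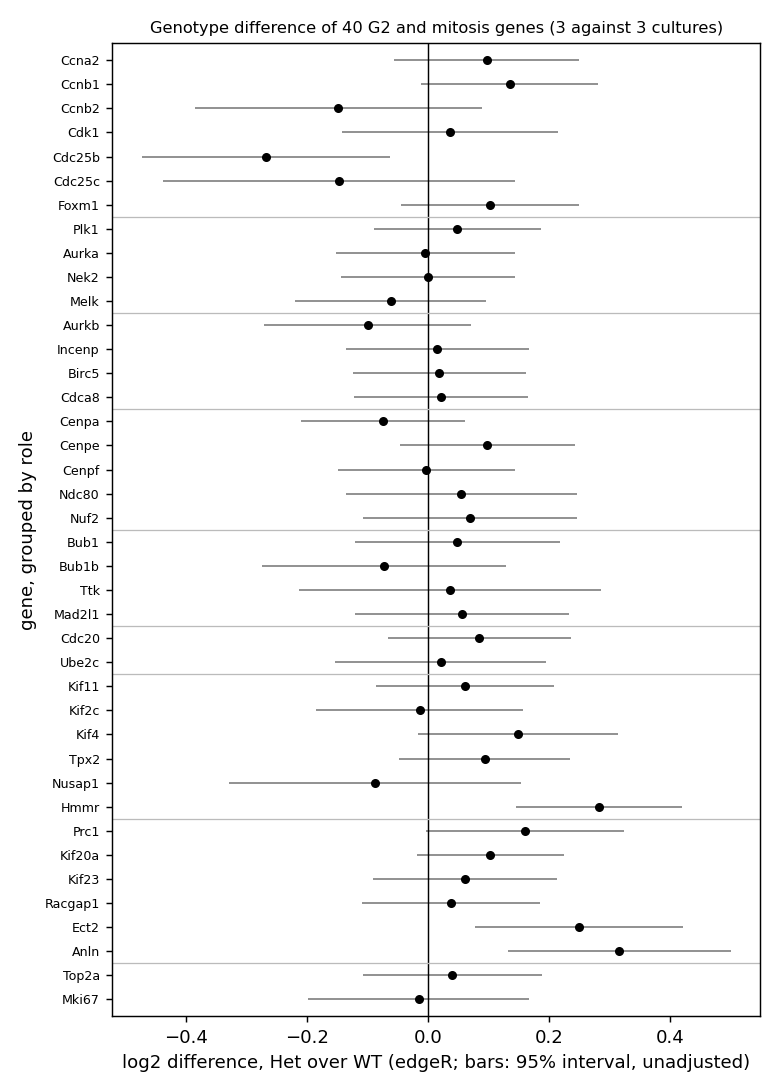
Log2 difference of Het over WT for the 40 genes, grouped by role from the cyclins at the top to Top2a and Mki67 at the bottom, with unadjusted 95% intervals from edgeR (3 against 3 cultures). Intervals of 36 genes include 0, and those of Hmmr, Anln, Ect2 and Cdc25b do not. None had an adjusted p under 0.05.

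The cyclins and CDK1 were close between genotypes. Ccnb1, cyclin B1, which partners CDK1 in mitosis, measured 121, 118 and 127 CPM in WT 10, 12 and 16 and 126, 143 and 135 CPM in Het 11, 15 and 18. Het 15 was the highest and the groups overlapped through Het 11 (log2 difference 0.14, SE 0.063, adjusted p = 0.436 by edgeR). Cdk1 stood at 143, 130 and 160 CPM in WT and at 144, 150 and 149 CPM in Het cultures. The WT cultures held both its lowest and its highest value (log2 difference 0.04, SE 0.078). Ccnb2, cyclin B2, measured 60.8, 57.6 and 52.8 CPM in WT and 46.4, 59.6 and 48.8 CPM in Het cultures, so Het 15 lay within the WT range and the other Het cultures below it (-0.15, SE 0.10, adjusted p = 0.581 by edgeR). Ccna2, cyclin A2, which acts in S phase and G2, ran from 148 to 161 CPM in WT and from 155 to 178 CPM in Het cultures.

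The CDC25 phosphatases, which remove inhibitory phosphates from CDK1, included the 1 member lower in Het at an unadjusted p under 0.05. Cdc25b (ENSMUSG00000027330.16, mm10 chromosome 2 from 131186949 to 131198497, plus strand) measured 41.6, 42.6 and 34.4 CPM in WT 10, 12 and 16 and 32.7, 32.8 and 33.2 CPM in Het 11, 15 and 18. The Het cultures were nearly equal, and WT 16 was close to them while WT 10 and 12 stood higher. The log2 difference was -0.27 (SE 0.089, adjusted p = 0.333 by edgeR). Without WT 16 it was -0.35 (adjusted p = 0.0216 by edgeR). WT 16 was also the lowest WT culture in every fibroblast marker examined except Vim and Thy1. In Dcn and Lum it was near the Het cultures. The markers Vim (3093, 2894 and 3628 CPM in WT 10, 12 and 16) and Thy1 (163.6, 138 and 164.3 CPM) were instead highest in WT 16 among the WT cultures. Dcn measured 159, 153 and 79.4 CPM in WT and 84.9, 84.9 and 80.6 CPM in Het cultures, and Lum 121, 114 and 59.6 CPM in WT and 65.8, 62.5 and 41.6 CPM in Het cultures. Of the 12 fibroblast markers, 9 were lower in Het by sign (median log2 difference -0.19), 0 were called and 5 had an unadjusted p under 0.05. Their part in the Cdc25b values was not tested. Its exons overlap those of Spef1 on the opposite strand, and whether counting used strand was not given in the sources used here. Cdc25c measured 18.2, 16.7 and 14.0 CPM in WT and 14.7, 16.1 and 13.4 CPM in Het cultures, with overlapping groups (-0.15, SE 0.13). Foxm1, the transcription factor that activates the group, measured 98.7, 90.6 and 97.0 CPM in WT and 96.3, 109 and 103 CPM in Het cultures (0.10, SE 0.064, adjusted p = 0.539 by edgeR).

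The mitotic kinases did not separate the genotypes. Plk1, which acts in mitotic entry, spindle assembly and cytokinesis, measured 112, 103 and 104 CPM in WT and 108, 116 and 107 CPM in Het cultures (0.05, SE 0.060). The other kinases of this role, Aurka (spindle poles), Nek2 (centrosome separation) and Melk, had log2 differences between -0.06 and 0.0003. In the chromosomal passenger complex, which corrects chromosome attachment, the kinase gene Aurkb measured 49.6, 46.6 and 49.5 CPM in WT and 45.3, 48.8 and 41.7 CPM in Het cultures. By CPM, Het 15 again lay within the WT range (-0.10, SE 0.074, adjusted p = 0.605 by edgeR). The other subunits, Incenp, Birc5 (survivin) and Cdca8 (borealin), differed by 0.02 each.

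Kinetochore and checkpoint genes overlapped between the groups for all 9 members. Cenpa, the centromeric histone H3 variant, measured 79.5, 76.5 and 80.3 CPM in WT and 74.7, 78.8 and 70.7 CPM in Het cultures (-0.07, SE 0.059, adjusted p = 0.628 by edgeR). Cenpf stood at 68.2, 65.9 and 61.6 CPM in WT and at 62.2, 65.5 and 67.9 CPM in Het cultures, equal in mean at 65.2 CPM. By TPM, where effective lengths enter, it was 14.5 ± 1.87 in WT and 12.4 ± 1.76 in Het cultures (SD, n = 3 each). Limma on log2(TPM + 1) put it -0.22 from WT, not called. Cenpe, the kinetochore motor, and Ndc80 and Nuf2, which bind microtubules, had differences of 0.10, 0.06 and 0.07. Among the checkpoint genes, Ttk measured 28.7, 25.5 and 29.4 CPM in WT and 27.1, 32.8 and 25.8 CPM in Het cultures, with Het 15 highest and Het 18 near the lowest (0.04, SE 0.11). Bub1, Bub1b and Mad2l1, which hold back the anaphase-promoting complex, differed by 0.05, -0.07 and 0.06.

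The cofactors of the anaphase-promoting complex showed the same narrow range. Cdc20, its mitotic activator, measured 118, 123 and 127 CPM in WT and 129, 140 and 121 CPM in Het cultures (0.08, SE 0.066, adjusted p = 0.622 by edgeR). Ube2c measured 103, 94.6 and 108 CPM in WT and 99.5, 113 and 97.7 CPM in Het cultures (0.02, SE 0.076). In both, Het 15 held the highest value of the 6. Top2a stood at 383, 365 and 367 CPM in WT and at 362, 410 and 375 CPM in Het cultures (0.04, SE 0.064). Mki67, the proliferation marker Ki-67, which coats mitotic chromosomes, measured 273, 261 and 247 CPM in WT and 231, 276 and 267 CPM in Het cultures. Its means were 261 ± 12.9 CPM in WT and 258 ± 23.8 CPM in Het cultures (SD, n = 3 each), and the log2 difference was -0.02 (SE 0.079).

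The 3 members higher in Het at an unadjusted p under 0.05 act on the spindle or in cytokinesis. Hmmr (ENSMUSG00000020330.16, chromosome 11 from 40701395 to 40733422, minus strand), a microtubule-binding spindle protein gene, measured 77.1, 79.6 and 77.0 CPM in WT 10, 12 and 16 and 89.4, 101 and 94.2 CPM in Het 11, 15 and 18. The WT cultures were close together and all Het cultures stood above them (0.28, SE 0.059, adjusted p = 0.313 by edgeR). Anln (ENSMUSG00000036777.8, chromosome 9 from 22332012 to 22389188, minus strand) encodes anillin, a scaffold of the contractile ring. It measured 144, 130 and 151 CPM in WT and 167, 194 and 168 CPM in Het cultures, with Het 15 well above the rest (0.32, SE 0.080, adjusted p = 0.313 by edgeR). Ect2 (ENSMUSG00000027699.19, chromosome 3 from 27097222 to 27153878, minus strand), the RhoA exchange factor gene of cytokinesis, measured 64.6, 66.2 and 75.0 CPM in WT and 76.6, 85.5 and 82.6 CPM in Het cultures. WT 16 and Het 11 were 2 neighbours that nearly touched (0.25, SE 0.075, adjusted p = 0.317 by edgeR).

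**Figure D2:**
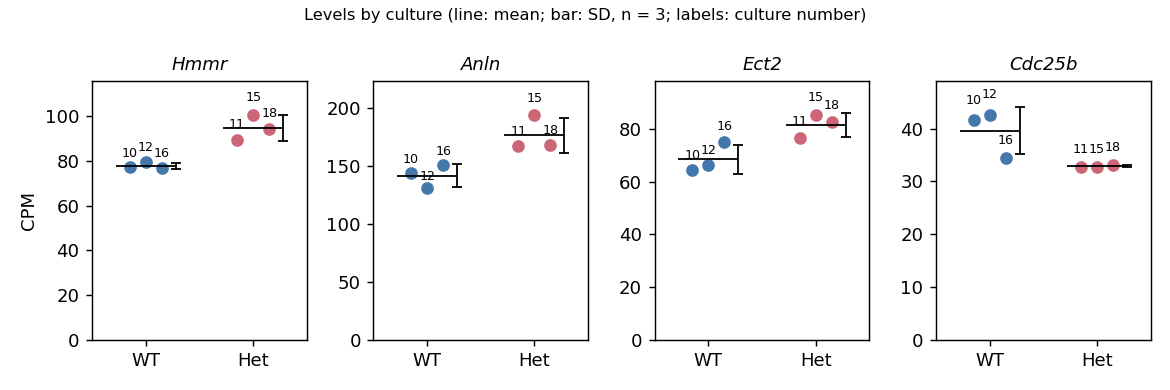
CPM of Hmmr, Anln, Ect2 and Cdc25b in each culture (points, labelled with the culture number), with the mean (line) and SD (bar, n = 3) of each genotype. Het cultures lie above WT cultures for the first 3 genes and below them for Cdc25b, where WT 16 at 34.4 CPM is near the Het values of 32.7 to 33.2 CPM.

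The calls of these 4 genes, and of Prc1, moved with the cultures used. Without WT 16, edgeR called Hmmr (0.28, adjusted p = 0.0437), Anln (0.37, adjusted p = 0.0435), Ect2 (0.32, adjusted p = 0.0317) and Cdc25b. That is 4 of 40 members, beside 5.93% of the 15113 genes in that fit (3.69% higher and 2.24% lower). Members that were not called moved as well. Nusap1 was -0.20 in that fit and -0.09 with all cultures, Bub1b -0.15 and -0.07, and Cdk1 0.12 and 0.04. The WT cultures left, 10 and 12, both belong to the culture numbers 10 to 12 and were registered together, so genotype is partly confounded with both. In the 4 cultures registered first, edgeR called these 4 and Prc1 (adjusted p = 0.0325), beside 9.83% of all genes in that fit. These were WT 10 and 12 and Het 15 and 18, so genotype there cannot be told apart from the run of culture numbers. Without WT 10 the adjusted p of each of the 4 was 0.773 by edgeR. Within cultures 10 to 12 and within cultures 15 to 18 the log2 differences of CPM were 0.20 and 0.35 for Hmmr, 0.30 and 0.27 for Anln, 0.24 and 0.18 for Ect2, and -0.35 and -0.05 for Cdc25b. DESeq2 on all 6 cultures called Anln alone among the members, at an adjusted p of 0.0492, where it called 0.765% of all genes.

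All 6 genes of the midzone and cytokinesis role had a positive difference, from 0.04 to 0.32. Prc1, which bundles the antiparallel microtubules of the midzone, measured 122, 119 and 125 CPM in WT and 123, 146 and 140 CPM in Het cultures, so Het 11 lay within the WT range (0.16, SE 0.071, adjusted p = 0.420 by edgeR). Kif20a, the motor that brings the passenger complex to the midzone, ran from 150 to 156 CPM in WT and from 159 to 172 CPM in Het cultures (0.10, SE 0.053, adjusted p = 0.468 by edgeR). Kif23 and Racgap1, which together form centralspindlin, differed by 0.06 and 0.04. The spindle motors and assembly factors were mixed. Kif4, a chromosome-bound motor, did not overlap between groups, at 55.3 to 61.8 CPM in WT and 62.7 to 70.7 CPM in Het cultures (0.15, SE 0.072, adjusted p = 0.444 by edgeR), while Kif11, Kif2c, Tpx2 and Nusap1 overlapped, with differences from -0.09 to 0.09.

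Across cultures, most members were high in the same culture, Het 15. For each gene the log2 CPM (prior count 2) was set against its own mean over the 6 cultures, and the median over the 40 genes was taken per culture. This member level was 0.11 in Het 15, 0.02 in WT 10, 0.02 in Het 18, -0.04 in WT 16, -0.04 in Het 11 and -0.07 in WT 12. Its highest and lowest cultures differed by 0.17, or 1.13-fold, and the SD between cultures of 1 genotype was 0.062. Het 15 stood above a gene's own mean in 39 of 40 genes and was the highest culture in 26 of 40, or 65.0%, where it was highest for 15.6% of all genes tested. WT 12 was the lowest in 18 of 40, or 45.0%, where it was lowest for 21.2% of all genes. Het 15 exceeded Het 11 on this scale in 39 of 40 members, Cdc25b being the exception, although both are heterozygous. By deposited TPM, Het 15 was highest in 17 of 40, beside 11.1% of all genes, and WT 10 in 12 of 40, beside 16.8%. The lowest culture changed by TPM: WT 12 was lowest in 3 of 40, WT 16 in 16 and Het 11 in 11.

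**Figure D3:**
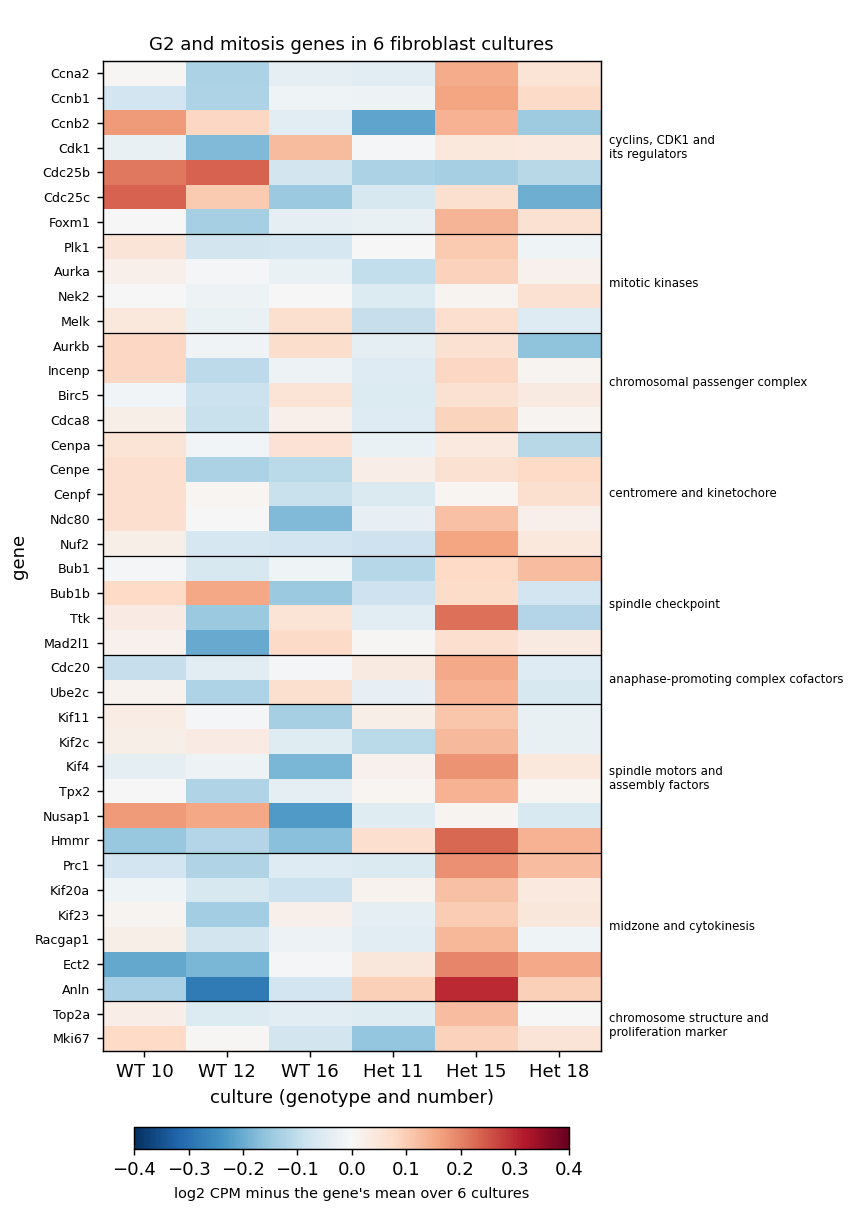
Log2 CPM of each of the 40 genes minus its mean over the 6 cultures (color scale from blue, below the mean, to red, above it), with genes grouped by role. The Het 15 column is red in nearly all rows (39 of 40 above the mean). WT 12, WT 16 and Het 11 are mostly blue (9, 11 and 11 of 40 above the mean).

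The pattern was shared among the roles. Het 15 had the highest median deviation in 8 of the 9 roles, from 0.07 in the chromosomal passenger complex to 0.16 in the midzone and cytokinesis genes. The exception was the centromere and kinetochore role, where WT 10 stood at 0.07 and Het 15 at 0.06. Single members departed from it. Cdc25b was below its mean in Het 15, Cdk1 was highest in WT 16 at 160 CPM, and Bub1b was highest in WT 12 at 88.8 CPM. The median member varied by 0.25 on the log2 scale between its highest and lowest culture, or 1.19-fold, beside 0.40 for the median gene tested. The widest range was 0.58 for Anln and the narrowest 0.12 for Nek2. All genes include many with lower counts, where counting error is larger. Its part in this difference of ranges was not tested.

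The positive median of the members was small and moved with the cultures and settings. With all cultures 28 of 40 members had a positive difference, beside 49.6% of all genes. Without Het 15 there were 20 of 40, and the median was -0.00025. It was 0.010 with 21 of 40 positive by limma on log2(TPM + 1), 0.011 with 21 of 40 with a term for the 10 to 12 and 15 to 18 number runs, 0.015 with 23 of 40 by library totals and 0.015 with 24 of 40 without WT 12. Within cultures 10 to 12 the members' median difference was -0.01, with 19 of 40 positive, and within cultures 15 to 18 it was 0.11, with 31 of 40 positive. Of the 40 genes, 20 had opposite signs in the 2 sets. Het 11 was the only Het culture in the first set and WT 16 the only WT culture in the second. Both were registered later, so within each set genotype cannot be told apart from registration. Within the 4 cultures registered first the members' median difference was 0.09, and within the later pair, Het 11 and WT 16, it was -0.01. In both of these, genotype cannot be told apart from the 10 to 12 and 15 to 18 number runs. Het 15 also had the highest summed macrophage and blood markers, at 280 TPM against 143 to 246 TPM in the other cultures. By log2 CPM, 5 of those 8 markers were highest in it. By TPM, Adgre1, 1 of these 5, was instead highest in Het 18, at 9.71 TPM against 9.62 TPM in Het 15. The 6 endothelial markers summed to 14.2 TPM in Het 15 and to 8.24 to 10.8 TPM in the other cultures. No macrophage and blood marker was at 0 in any culture. The part of these cells in the level of the mitotic genes was not tested.

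Of the genes that work with the 40, other spindle and kinetochore genes and condensins gave similar values, while the anaphase-promoting complex had a negative median. Of 45 other spindle and kinetochore genes, all of which passed the filter, 0 were called in either direction, 32 had a positive difference and the median was 0.05. The smallest unadjusted p among them were those of Depdc1a (log2 difference 0.26, SE 0.080), Cep55, an abscission factor (0.27, SE 0.090) and Iqgap3 (0.18, SE 0.064), with adjusted p from 0.321 to 0.353 by edgeR. Het 15 was the highest culture in 22 of these 45. For the 8 condensin subunits, which compact mitotic chromosomes, 0 were called and the median was 0.07, with Het 15 highest in 6 of 8. By limma on log2(TPM + 1) the condensin median was 0.0015. Their summed TPM was highest in WT 10, at 446, beside 432 in Het 15. The 17 other genes of the anaphase-promoting complex had 0 called and a median of -0.05, and Het 15 was highest in 2 of 17. Their smallest unadjusted p was that of the RING subunit gene Anapc11, at -0.17 (SE 0.067, adjusted p = 0.387 by edgeR).

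The regulators upstream also gave 0 calls. Among 18 MuvB, B-MYB and E2F genes the median was 0.05, and the smallest unadjusted p was that of Rbl2, the p130 pocket protein of the DREAM complex. It measured 34.2, 34.3 and 28.9 CPM in WT and 26.7, 27.7 and 24.8 CPM in Het cultures, with no overlap (-0.30, SE 0.091, adjusted p = 0.317 by edgeR). Of 10 genes that restrain entry into mitosis, 7 had a positive difference and the median was 0.09. Ccng1, cyclin G1, a p53 target, had the smallest p among them, at 436, 488 and 605 CPM in WT and 645, 627 and 618 CPM in Het cultures (0.31, SE 0.11, adjusted p = 0.356 by edgeR).

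By log2 CPM, DNA replication genes had the same highest and lowest cultures, with another order between them. Of 25 genes, 0 were called, 19 had a positive difference and the median was 0.10. Their level per culture, measured as for the mitotic genes, was 0.13 in Het 15, 0.04 in Het 18, -0.03 in WT 10 and -0.08 in WT 12. Het 15 was the highest culture in 18 of 25, or 72.0%. By summed TPM the lowest was WT 16, at 1686, beside 1706 in WT 12.

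**Figure D4:**
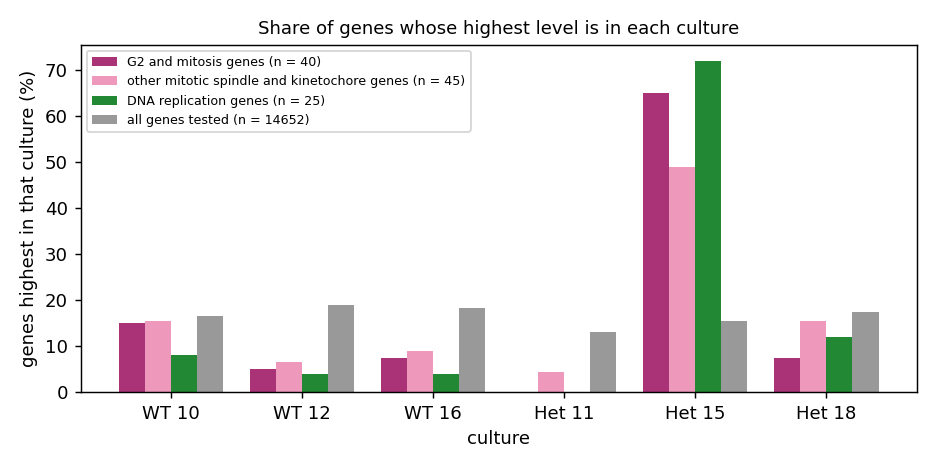
Share of genes (%) whose highest level of the 6 cultures lies in each culture, for the 40 G2 and mitosis genes, 45 other spindle and kinetochore genes, 25 DNA replication genes and all 14652 genes tested. Het 15 takes 65.0% of the G2 and mitosis genes and 72.0% of the replication genes but 15.6% of all genes.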

How the data were processed

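Libraries were made from total RNA with an Illumina TruSeq kit, per the labels' protocols. The submitters' processing notes name RSEM 1.3.1, DESeq2 and mm10. Aligner, annotation release and strandedness were not given in the sources used here. Per the file headers, the deposited expected counts are RSEM's estimated counts per gene, with fractional values for 7.53% to 8.80% of genes per library. The deposited TPM values are scaled for length and library, and the deposited FPKM values were not used. Gene length and effective length columns of the authors' tables are other values in bases, and the effective length served as an offset in 1 alternative.

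Expected counts were rounded, filtered with filterByExpr, scaled with TMM factors and compared over all 6 libraries with the quasi-likelihood test of edgeR 4.0.16 in R 4.3.3. DESeq2 1.42.0 and limma 3.58.1 on log2(TPM + 1) and log2(TPM + 0.1) were alternatives, with other scalings, no filter, length offsets, a culture-number term, the first-registered block alone and each culture left out. The median SE of a log2 difference over all genes was 0.11, and the 3-count floors reflect counting error alone. Scripts were first tested on simulated counts. Symbols came from a GENCODE table and gave a name for 51633 genes, and coordinates are of mm10. Exons of 14 members overlap exons of another gene, for 12 of them on the opposite strand alone, so their values are uncertain. The members and lists were chosen with earlier results of these data known. Genes given in every culture were 8 set members, the 4 smallest unadjusted p in each direction, and the 3 highest and 3 lowest by TPM. Companion lists name up to 3 genes by unadjusted p.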

Additional observations from a re-analysis of the deposited data

How the results depend on the processing

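No paired analysis was possible because the genotypes share no culture numbers. In the first-registered block, genotype coincides with the run of culture numbers. Members called stayed at 0 by edgeR and limma except without WT 16 (4) and with the first-registered block alone (5), and DESeq2 called 1, so over the left-out cultures the count ran from 0 to 4. Over all genes the calls were 32 with no filter, 112 by DESeq2, 0 by limma with either pseudocount or with length offsets, 1450 in the first-registered block, and 0 to 896 with a culture left out. At an unadjusted p under 0.05, limma had 1693 and 1681 genes and length offsets 1626. The members' median difference ran from -0.00025 (without Het 15) to 0.08 (first-registered block) over all settings, and the difference between highest and lowest culture from 0.090 (without Het 15) to 0.19 (without Het 11) over left-out cultures. Scaling by library totals gave 43.4% of all genes a positive difference in place of 49.6%, and moved the median of all genes to -0.03.

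Of 285 values of 19 named members under the alternatives, 249 kept their sign and side of the threshold, 10 gained a call and 26 changed sign. The sign changes were in 6 members, none larger than 0.072 in size and none called. Ube2c was -0.0035 by library totals, -0.0033 and -0.0034 by limma, -0.012 with the culture-number term, and -0.047 to 0.066 with a culture left out. Cenpf was 0.0040 by DESeq2 size factors, 0.0069 with no filter and 0.0029 by DESeq2, -0.039 to 0.038 with a culture left out, and -0.22 and -0.23 by limma and -0.20 with length offsets. Top2a was -0.037 and -0.037 by limma, -0.016 with length offsets and -0.013 to 0.079 with a culture left out. Ttk was -0.011 and -0.011 by limma, -0.00042 with the culture-number term, and -0.072 to 0.10 with a culture left out. Cdk1 was -0.0070 with that term and -0.028 to 0.12 with a culture left out. Mki67 was 0.022 in the first-registered block and -0.066 to 0.059 with a culture left out. The causes of these shifts were not tested. The number of members highest in Het 15, added after seeing the data, ran from 17 by TPM to 28 over 12 settings.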
